A study of Mus musculus with 9 samples.

Results

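The genes described here are 33 symbols of glucose uptake, glycolysis, lactate export and the pyruvate dehydrogenase step. They were chosen by name, and no measured value was used to choose them. The expression tables held 34 rows with these symbols among 55488 gene rows, because Aldoa stands in 2 rows with different identifiers. RNA sequencing was done on sorted blood cells of C57BL/6 mouse fetal liver at embryonic day 14.5, with 100 cells in each of 9 libraries and 3 libraries in each of 3 groups. Evi1 HSC libraries came from Tie2-Cre::ROSA-Evi1 embryos and held GFP+ cells sorted as haematopoietic stem cells (HSC) by CD150+CD48-c-Kit+Sca-1+Lin-. WT HSC libraries came from ROSA-Evi1 embryos, with no Cre in the label, and were sorted with those surface markers and no GFP criterion. WT KL libraries held c-Kit+Sca-1-Lin- cells, a gate of committed progenitors, also from ROSA-Evi1 embryos. All 3 groups therefore carried the ROSA-Evi1 allele, and the Evi1 HSC cells alone carried the recombinase and were selected for a reporter. Tie2-Cre recombines in endothelial cells and in the blood cells that descend from them, so recombination was not limited to stem cells by design. The Mecom locus encodes Evi1, a transcription factor with zinc fingers.

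Glycolysis splits glucose into pyruvate, and several of its steps can be carried out by more than one isozyme encoded by different genes. Pyruvate is either reduced to lactate and exported, or carried into mitochondria, where the pyruvate dehydrogenase complex turns it into acetyl-CoA. Kinases of the Pdk family switch that complex off, and adult stem cells are known for high Pdk activity and a reliance on glycolysis, whereas red cells, which lose their mitochondria, depend on glycolysis and use the isozyme encoded by Pklr.

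All levels below are TPM, the length-scaled share of a library's transcripts, so levels of different genes can be compared within a library. TPM keeps no read depth, so the depth behind each value is unknown, and how low a level a listed 0 allows cannot be stated. In bulk libraries of this kind, fewer cells of a type and less RNA per cell cannot be told apart. No label says that replicates came from separate embryos, so the p-values speak of the spread between these samples alone, which may be technical.

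The gate genes of 2 libraries went against their labels. Mecom in the library labelled WT HSC replicate 3 was 0.0167 TPM, against 114 and 161 TPM in the rest of that group. Its level where the label was WT KL replicate 1 was 90.8 TPM, against 0.0107 and 0.325 TPM in the other WT KL libraries. Ly6a, which encodes Sca-1, was listed at 0 in the first and at 19.7 TPM in the second, and the myeloid gene Mpo at 579 and 13.6 TPM. Egfp, the reporter, was between 23.4 and 27.3 TPM in the Evi1 HSC libraries and at most 0.380 TPM in all others. Each comparison was therefore made over the 9 libraries as labelled and again over 7, with both of those libraries left out and neither moved. In the values below they are named as the libraries labelled WT HSC 3 and WT KL 1, and the WT HSC and WT KL libraries mean the other 2 of each group. Over all libraries the 34 rows summed to between 1867 TPM, in the library labelled WT KL 1, and 2934 TPM, in WT KL 2.

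Differences are of mean log2(TPM + 1), which understates changes of low genes, and were tested with limma over all 19461 genes that reached 1 TPM in at least 3 libraries. A gene is called at a Benjamini-Hochberg adjusted p under 0.05. Of the 34 rows, 33 were tested, and the row that failed the filter was Pdk4. With the 9 libraries as labelled, 0 of the 33 tested rows were called in any of the 3 comparisons. The same fit called 0.00514% of all genes for Evi1 HSC against WT HSC, 0.00514% for WT HSC against WT KL and 0.0103% for Evi1 HSC against WT KL. At an unadjusted p under 0.05, 5, 0 and 13 of the 33 rows passed in those comparisons, beside 907, 282 and 2956 of all 19461 genes. The smallest adjusted p of a member was 0.64, 0.963 and 0.310.

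With the 7 libraries, both stem cell groups differed from WT KL in most of these genes and in both directions. Against WT KL, 19 of the 33 rows were called for WT HSC, 9 higher and 10 lower, and 20 were called for Evi1 HSC, 12 higher and 8 lower. The background was high: 37.5% of all genes were called for WT HSC against WT KL, 26.7% higher and 10.8% lower, and 45.5% for Evi1 HSC against WT KL, 31.3% higher and 14.3% lower. Read against that background, the share of members called higher was close to the share of all genes, and the share called lower exceeded it. The median difference of the members was -0.02 for WT HSC and 0.20 for Evi1 HSC on the log2 scale, beside 0.26 and 0.28 over all genes tested. These comparisons share their WT KL libraries and are not independent of each other.

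Between Evi1 HSC and WT HSC, 1 member was called with the 7 libraries, Pklr, which was lower in Evi1 HSC. In that comparison 0.206% of all genes were called, 0.0565% higher and 0.149% lower. Of 8 gate and identity genes, 1 was called, Egfp, which was higher in Evi1 HSC. Mecom averaged 198 TPM in Evi1 HSC and 138 TPM in WT HSC and was not called between them. The other 32 rows of the members lay between -0.80 and 0.85 on the log2 scale, 21 of them positive and 11 negative, with adjusted p from 0.216 to 0.977. Their median with Pklr included was 0.19, beside 0.00 over all genes. At an unadjusted p under 0.05, 8 of the 33 rows passed, beside 1635 of all 19461 genes.

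**Figure D1:**
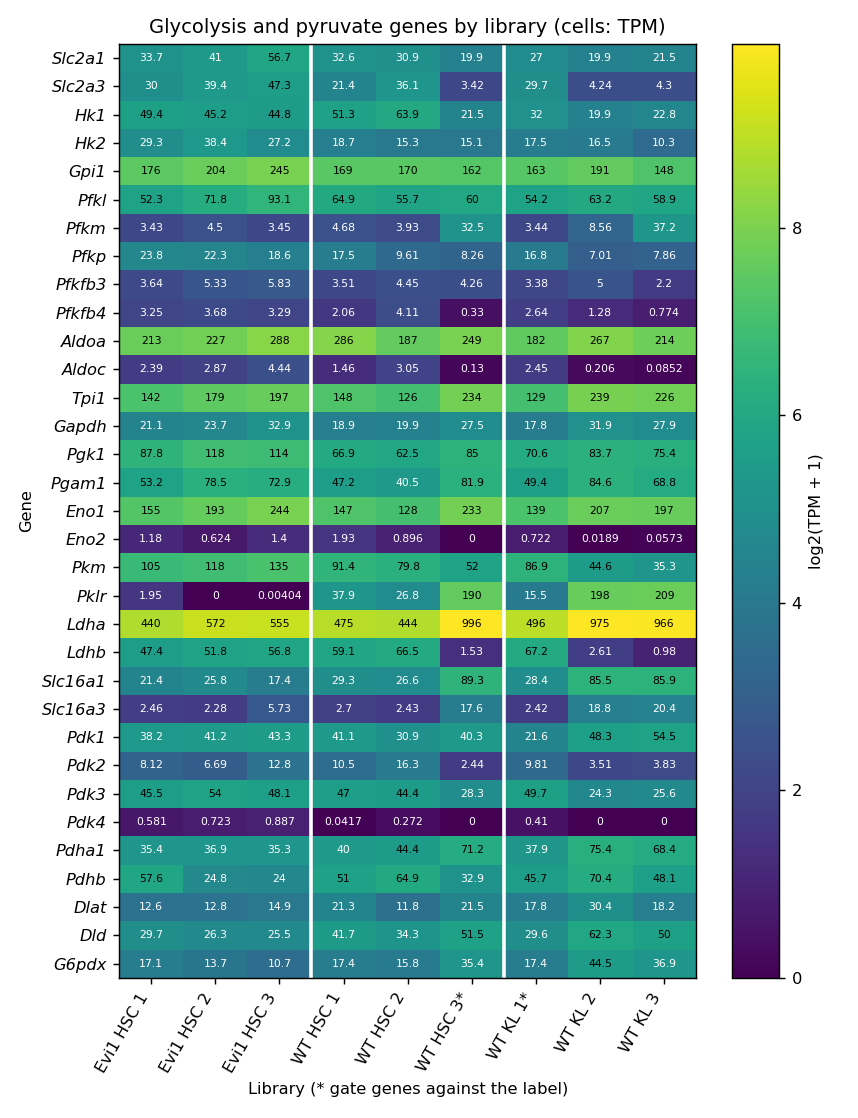
Level of each member in each library, as log2(TPM + 1) in colour and TPM in the cells, with members in rows by role, the 2 Aldoa rows summed, and the 9 libraries in columns. An asterisk marks the libraries labelled WT HSC 3 and WT KL 1, and in rows such as Ldhb, Slc16a1 and Pklr the library labelled WT HSC 3 has the colour of WT KL 2 and WT KL 3.

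**Figure D2:**
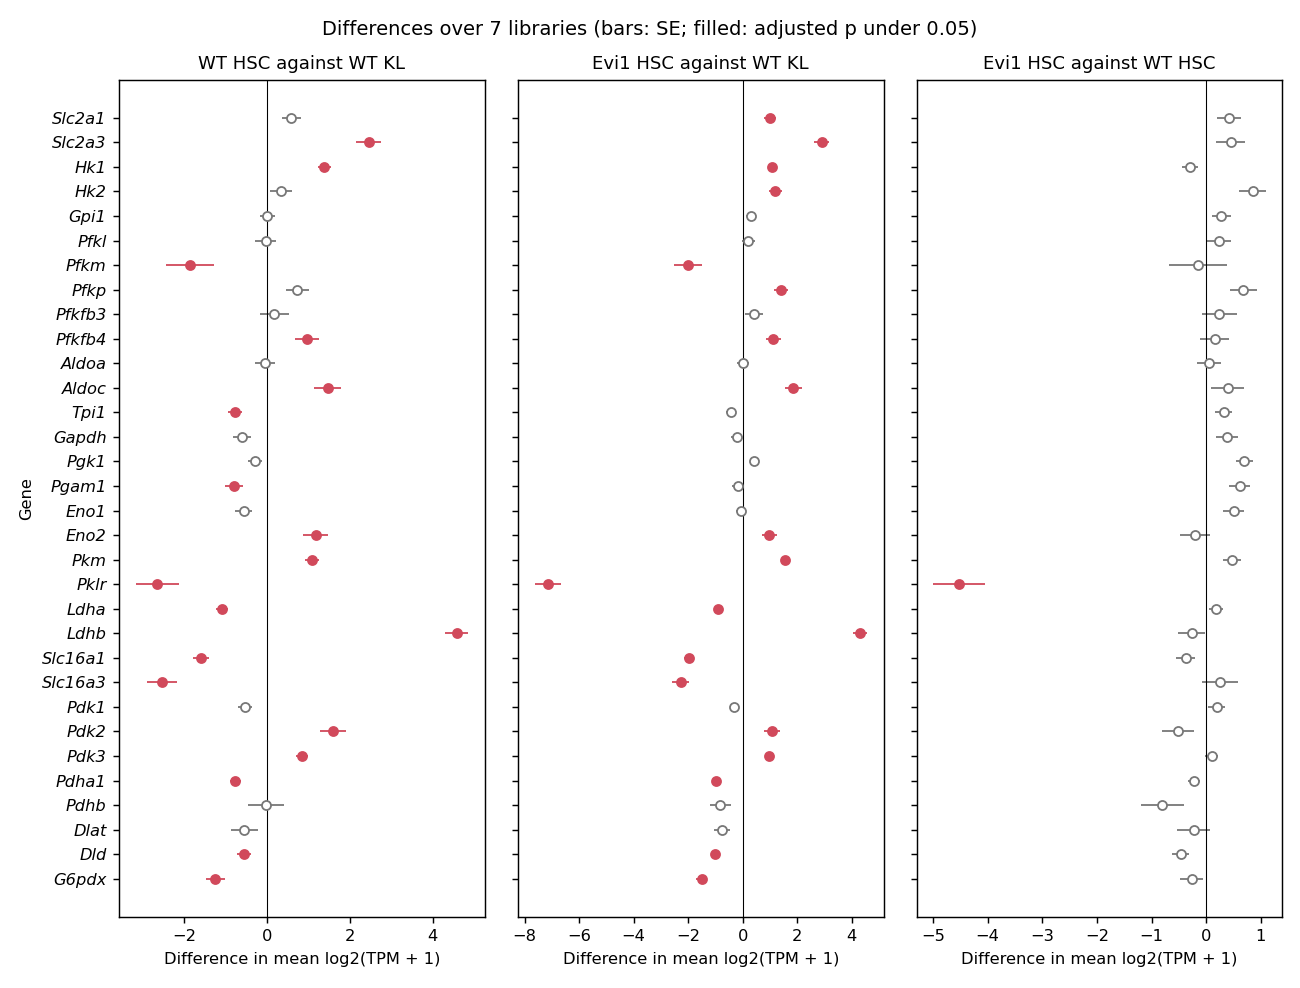
Difference of mean log2(TPM + 1) of each tested member, with the main row of Aldoa, in the 3 comparisons with 7 libraries, with bars of 1 standard error and filled points for members called at an adjusted p under 0.05. Pklr lies at -4.52 for Evi1 HSC against WT HSC and at -7.16 for Evi1 HSC against WT KL.

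Pyruvate kinase, the last step of glycolysis, was listed mainly as Pkm in both stem cell groups and mainly as Pklr in WT KL. Pklr encodes the isozyme of red cells and liver, and lies at chr3:89136142-89146784 (GRCm38, plus strand). It measured 1.95, 0 and 0.00404 TPM in the Evi1 HSC libraries, 37.9 and 26.8 TPM in the WT HSC libraries, 198 and 209 TPM in the WT KL libraries, and 189.7 and 15.5 TPM in the pair labelled WT HSC 3 and WT KL 1. No level in the Evi1 HSC libraries reached the lowest level of any other library, and the WT HSC libraries lay between Evi1 HSC and WT KL. Pklr was lower by 2.64 on the log2 scale in WT HSC than in WT KL (log2 difference -2.64, SE 0.52, adjusted p 0.00827). It was lower in Evi1 HSC than in WT KL (-7.16, SE 0.48, adjusted p 7.7e-05) and than in WT HSC (-4.52, SE 0.48, adjusted p 0.0387). With the 9 libraries as labelled, the difference between Evi1 HSC and WT HSC was -5.36 (SE 1.09) with an adjusted p of 0.64.

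The call of Pklr between the stem cell groups was close to the threshold. It was lost on leaving out Evi1 HSC 2 (adjusted p 0.0864), Evi1 HSC 3 (0.0804), WT HSC 1 (0.160), WT HSC 2 (0.0982), WT KL 2 (0.130) or WT KL 3 (0.129), while its log2 difference then stayed between -4.76 and -4.26. A pseudocount of 0.1 TPM moved the difference to -6.85 and the adjusted p to 0.160. Against WT KL, the call in WT HSC was lost without WT HSC 2 (adjusted p 0.0536), without WT KL 3 (0.0522) or with that pseudocount (0.170).

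Pkm, the gene of the other pyruvate kinase, lies at chr9:59656368-59679375 (GRCm38, plus strand). It is spliced into a muscle form and an embryonic form, which gene-level TPM cannot tell apart, and the same holds for the red cell and liver transcripts of Pklr. Pkm measured 105, 118 and 135 TPM in the Evi1 HSC libraries, 91.4 and 79.8 TPM in the WT HSC libraries, 44.6 and 35.3 TPM in the WT KL libraries, and 52.0 and 86.9 TPM in the pair labelled WT HSC 3 and WT KL 1. Its order was the opposite of that of Pklr, and the 3 groups of the 7 libraries did not overlap. Pkm was higher than in WT KL by 1.09 in WT HSC (SE 0.17, adjusted p 0.00372) and by 1.56 in Evi1 HSC (SE 0.16, adjusted p 4.15e-04). Between Evi1 HSC and WT HSC it differed by 0.47 (SE 0.16, adjusted p 0.494) and was not called.

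As a share of the summed TPM of both genes, Pkm made up 98.2, 100.0 and 100.0% in the Evi1 HSC libraries and 70.7 and 74.8% in the WT HSC libraries. In WT KL that share was 18.4 and 14.4%, and in the libraries labelled WT HSC 3 and WT KL 1 it was 21.5 and 84.8%. Summed over both genes, the level was 107, 118 and 135 TPM in Evi1 HSC, 129 and 107 TPM in WT HSC, and 243 and 245 TPM in WT KL. The total therefore overlapped between the stem cell groups, while its makeup did not. A pseudogene that matches Pkm at 95% identity or more was listed at 50.9, 53.7 and 61.4 TPM in Evi1 HSC. It was at 38.7 and 35.8 TPM in WT HSC and 23.2 and 16.9 TPM in WT KL. Its reads cannot be told from those of Pkm, so these shares and sums hold for listed TPM only. With it added, Pkm stayed higher than in WT KL, by 1.03 in WT HSC and 1.53 in Evi1 HSC, both called. Of the exonic bases, 711 of 3236 of Pklr are shared with Hcn3 and 767 of 5001 of Pkm with Gm49759, and the rule for reads there is not given by the labels or the files.

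**Figure D3:**
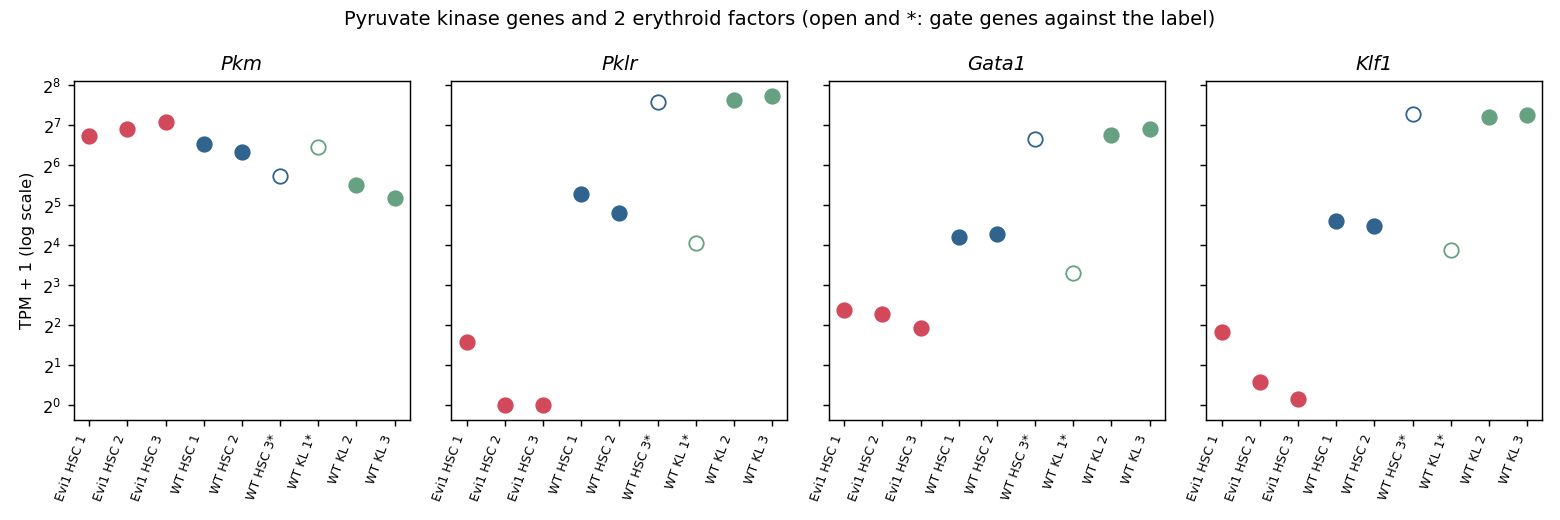
TPM + 1 of Pkm, Pklr, Gata1 and Klf1 on a log axis, with 1 point per library, coloured by the labelled group, and open points for the libraries labelled WT HSC 3 and WT KL 1. Among the filled points, Pklr, Gata1 and Klf1 are lowest in Evi1 HSC and highest in WT KL 2 and 3, where Pklr is at 198 and 209 TPM, while Pkm goes from 105 to 135 TPM in Evi1 HSC to 35.3 and 44.6 TPM in WT KL 2 and 3.

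The erythroid factors Gata1 and Klf1 followed the order of Pklr over the groups, and the summed erythroid genes did not. Gata1, a transcription factor of the erythroid and megakaryocyte lineages, measured 4.20, 3.79 and 2.79 TPM in Evi1 HSC, 17.3 and 18.2 TPM in WT HSC, 107 and 118 TPM in WT KL, and 100.1 and 8.92 TPM in the pair labelled WT HSC 3 and WT KL 1. Klf1, an erythroid transcription factor, measured 2.51, 0.474 and 0.110 TPM in Evi1 HSC, 23.1 and 21.1 TPM in WT HSC, 147 and 151 TPM in WT KL, and 155 and 13.6 TPM in the pair labelled WT HSC 3 and WT KL 1. Of 25 erythroid genes, 4 were called lower and 0 higher in Evi1 HSC than in WT HSC, with Gata1 at -2.04 (adjusted p 0.0182) and Klf1 at -3.69 (adjusted p 0.0430). These 4 calls came down to 0 without Evi1 HSC 2, WT HSC 1, WT HSC 2, WT KL 2 or WT KL 3 and to 1 without Evi1 HSC 3, and they were 6 without Evi1 HSC 1. Without 1 library the adjusted p was 0.0246 to 0.129 for Gata1 and 0.0038 to 0.215 for Klf1. Against WT KL, 17 were lower and 2 higher in WT HSC, and 17 lower and 3 higher in Evi1 HSC, and the first 17 were 11 without WT KL 3 and 10 with a pseudocount of 0.1 TPM. Their summed level, which globins dominate, was 1486 to 3669 TPM in Evi1 HSC, 1565 to 1972 TPM in WT HSC and 2836 to 2866 TPM in WT KL. In the pair labelled WT HSC 3 and WT KL 1 it was 3126 and 7721 TPM, the latter the highest of all libraries. Evi1 HSC 1, the Evi1 HSC library with the highest Pklr, also held 14.8 TPM of the red cell anion exchanger Slc4a1, against 0.0892 and 0 TPM in the other Evi1 HSC libraries. The part of red cell content in the level of Pklr was not tested.

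The sequences upstream of Pklr are shown because its 2 RefSeq starts serve different transcripts and because GATA and KLF factors bind AGATAA and CACCC, respectively. They are from the RefSeq promoter table (GRCm38.p6), 5′ to 3′ on the strand of the gene, with bases in annotated exons left off, and capitals mark AGATAA or CACCC on either strand or ACGTG, the core bound by hypoxia-inducible factors, which is also part of the E-box CACGTG.
Pklr upstream start, chr3:89135892-89136141, plus strand: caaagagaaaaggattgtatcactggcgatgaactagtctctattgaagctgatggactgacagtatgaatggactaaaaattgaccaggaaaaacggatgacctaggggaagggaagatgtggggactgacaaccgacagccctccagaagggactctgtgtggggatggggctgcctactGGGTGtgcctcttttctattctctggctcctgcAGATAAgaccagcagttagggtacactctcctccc
Pklr downstream start, chr3:89136373-89136571, plus strand: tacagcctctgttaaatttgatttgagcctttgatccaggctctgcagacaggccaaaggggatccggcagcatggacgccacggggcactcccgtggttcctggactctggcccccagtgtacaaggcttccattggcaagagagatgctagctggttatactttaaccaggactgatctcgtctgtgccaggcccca

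The first window held 1 AGATAA, 35 bases before the start, and 1 CACCC on the other strand, 68 bases before it. In the second window none of these motifs was found. Over all 32851 RefSeq windows of the 250 bases before a start, 9.99% held AGATAA, 52.0% CACCC and 16.6% ACGTG. The members had 47 such windows for 32 of the 33 symbols, and the symbol without an entry was Slc2a3. Of the 47, AGATAA was in 6 (12.8%), CACCC in 29 (61.7%) and ACGTG in 17 (36.2%). Some windows of the same gene overlap, as for Aldoa and Pfkm, so a site can be counted more than once. Counted by gene, AGATAA was found for 4 of the 32 symbols, CACCC for 24 and ACGTG for 14. These matches are letters in a window and no measure of binding.

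Glucose carriers open the pathway. Slc2a1 encodes GLUT1, the carrier of most cell types, and measured 33.7, 41.0 and 56.7 TPM in Evi1 HSC, 32.6 and 30.9 TPM in WT HSC, 19.9 and 21.5 TPM in WT KL, and 19.9 and 27.0 TPM in the pair labelled WT HSC 3 and WT KL 1. Every library of both stem cell groups was above both WT KL libraries. The difference from WT KL was called for Evi1 HSC (1.01, SE 0.21, adjusted p 0.00853) and not for WT HSC (0.59, adjusted p 0.0881), and without WT KL 2 the first had an adjusted p of 0.0567. Slc2a3 encodes the high-affinity carrier GLUT3. It measured 30.0, 39.4 and 47.3 TPM in Evi1 HSC, 21.4 and 36.1 TPM in WT HSC, 4.24 and 4.30 TPM in WT KL, and 3.42 and 29.7 TPM in the pair labelled WT HSC 3 and WT KL 1. Slc2a3 was higher than in WT KL by 2.45 in WT HSC (SE 0.29, adjusted p 0.00121) and by 2.90 in Evi1 HSC (SE 0.27, adjusted p 2.78e-04). It made up 45.5 to 49.0% of the summed TPM of both carriers in Evi1 HSC, 39.6 and 54.0% in WT HSC, and 17.5 and 16.7% in WT KL.

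Hexokinases trap glucose in the cell as its phosphate. Hk1 measured 49.4, 45.2 and 44.8 TPM in Evi1 HSC, 51.3 and 63.9 TPM in WT HSC, 19.9 and 22.8 TPM in WT KL, and 21.5 and 32.0 TPM in the pair labelled WT HSC 3 and WT KL 1. It was higher than in WT KL in WT HSC (1.39, SE 0.16, adjusted p 9.5e-04) and in Evi1 HSC (1.09, SE 0.14, adjusted p 0.00114). Hk2, the inducible form of muscle and tumours, measured 29.3, 38.4 and 27.2 TPM in Evi1 HSC, 18.7 and 15.3 TPM in WT HSC, 16.5 and 10.3 TPM in WT KL, and 15.1 and 17.5 TPM in the pair labelled WT HSC 3 and WT KL 1. Each Evi1 HSC library held more Hk2 than every other library, but the difference from WT HSC was not called (0.85, SE 0.24, adjusted p 0.396). Against WT KL it was called for Evi1 HSC (1.20, SE 0.24, adjusted p 0.00694) and not for WT HSC (0.35, adjusted p 0.337). The Hk2 share of both hexokinases was 37.3, 46.0 and 37.8% in Evi1 HSC, 26.8 and 19.3% in WT HSC, and 45.4 and 31.2% in WT KL, so it was lowest in WT HSC and overlapped between the other groups.

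**Figure D4:**
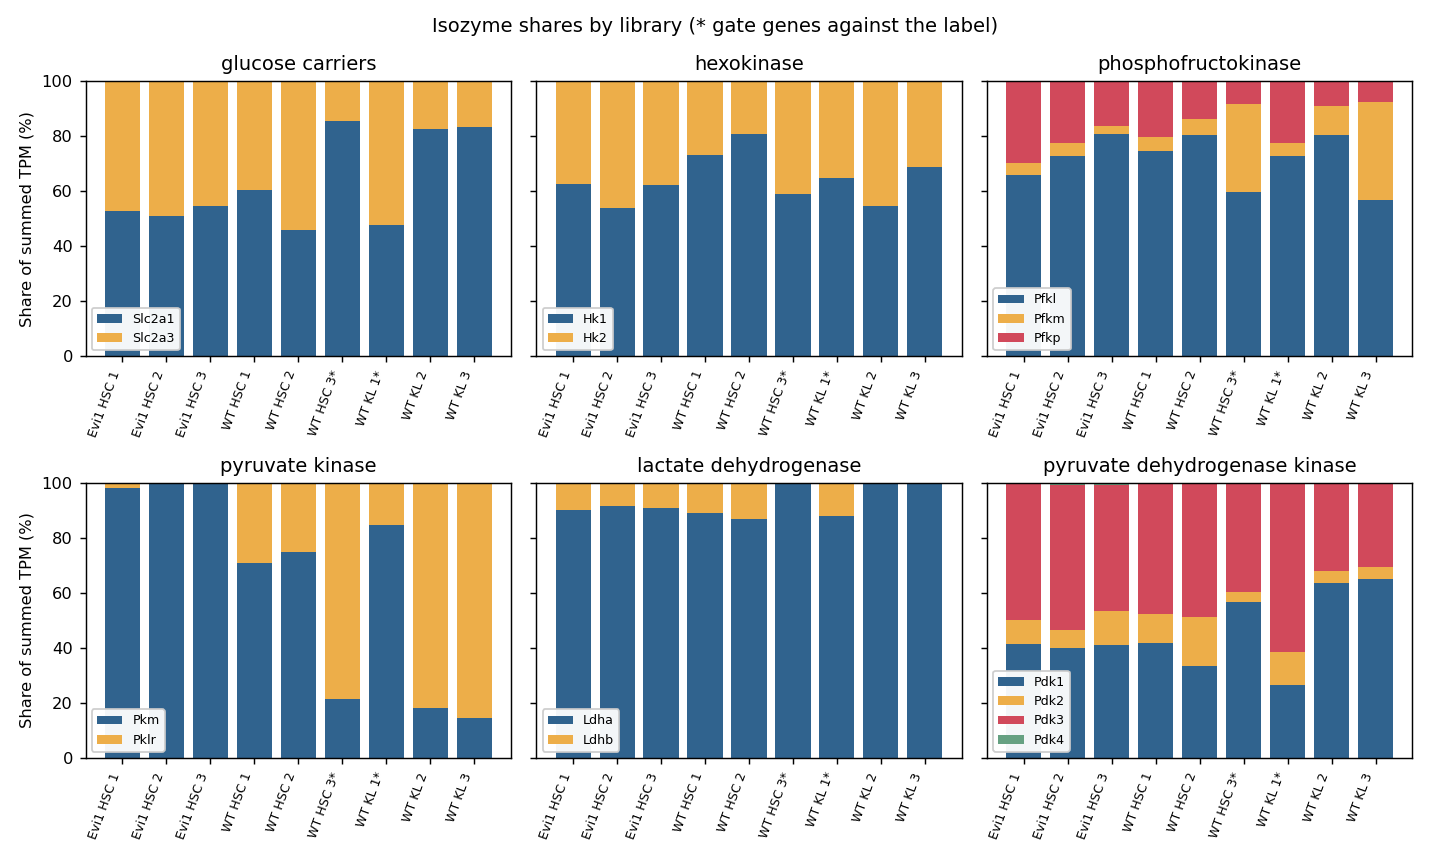
Share of each isozyme in the summed TPM of its step, in percent, with 1 stacked bar per library and 1 panel per step; an asterisk marks the libraries labelled WT HSC 3 and WT KL 1. Pkm makes up 98.2 to 100.0% of pyruvate kinase in Evi1 HSC and 14.4 to 18.4% in WT KL 2 and 3.

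Phosphofructokinase, the committed step, is encoded by 3 genes. Pfkl, the liver type, was the most abundant in every library, with 52.3, 71.8 and 93.1 TPM in Evi1 HSC, 64.9 and 55.7 TPM in WT HSC, 63.2 and 58.9 TPM in WT KL, and 60.02 and 54.2 TPM in the pair labelled WT HSC 3 and WT KL 1. The groups overlapped, and Pfkl was called in no comparison. Pfkm, the muscle type, measured 3.43, 4.50 and 3.45 TPM in Evi1 HSC, 4.68 and 3.93 TPM in WT HSC, 8.56 and 37.2 TPM in WT KL, and 32.5 and 3.44 TPM in the pair labelled WT HSC 3 and WT KL 1. It was lower than in WT KL by the fit, at -1.85 in WT HSC (SE 0.57, adjusted p 0.0417) and -2.0 in Evi1 HSC (SE 0.52, adjusted p 0.0192), but the 2 WT KL libraries were far apart. Without WT KL 3 the WT HSC difference was -0.85 (adjusted p 0.0754), and it also lost its call without WT HSC 1 (0.107), WT HSC 2 (0.151) or any 1 Evi1 HSC library (0.0608 to 0.0618). Without WT KL 2 it was -2.85. For Evi1 HSC the difference was -1.0 without WT KL 3 and -3.0 without WT KL 2, both called, and the call was lost without Evi1 HSC 3 (adjusted p 0.0503).

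Pfkp, the platelet type, measured 23.8, 22.3 and 18.6 TPM in Evi1 HSC, 17.5 and 9.61 TPM in WT HSC, 7.01 and 7.86 TPM in WT KL, and 8.26 and 16.8 TPM in the pair labelled WT HSC 3 and WT KL 1. It was higher in Evi1 HSC than in WT KL (1.41, SE 0.25, adjusted p 0.00418). The difference of WT HSC from WT KL (0.74, adjusted p 0.076) and that of Evi1 HSC from WT HSC (0.68, adjusted p 0.532) were not called. Pfkp made up 29.9, 22.6 and 16.2% of the step in Evi1 HSC and 8.90 and 7.56% in WT KL. The megakaryocyte genes, a lineage rich in Pfkp, stood beside it at 149 to 195 TPM summed over 8 genes in Evi1 HSC, 211 to 212 TPM in WT HSC and 14.0 to 14.6 TPM in WT KL, and their part in its level was not tested.

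Pfkfb3 and Pfkfb4 make and break the fructose bisphosphate that activates phosphofructokinase. Pfkfb4 measured 3.25, 3.68 and 3.29 TPM in Evi1 HSC, 2.06 and 4.11 TPM in WT HSC, 1.28 and 0.774 TPM in WT KL, and 0.330 and 2.64 TPM in the pair labelled WT HSC 3 and WT KL 1. It was higher than in WT KL in Evi1 HSC (1.13, SE 0.26, adjusted p 0.0126; 0.0912 without WT KL 3) and in WT HSC (0.97, SE 0.29, adjusted p 0.0367). The latter call was lost on leaving out any 1 library except WT HSC 1, at adjusted p from 0.0529 to 0.173, and without WT HSC 2 its difference was 0.60. Pfkfb3 measured 3.64, 5.33 and 5.83 TPM in Evi1 HSC, 3.51 and 4.45 TPM in WT HSC, 5.0 and 2.20 TPM in WT KL, and 4.26 and 3.38 TPM in the pair labelled WT HSC 3 and WT KL 1. Its groups overlapped and it was not called.

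The reactions from aldolase to enolase were carried by 1 main gene each. Aldoa, of muscle and most other tissues, made up at least 98.4% of aldolase in every library. Its main row measured 211, 225 and 285 TPM in Evi1 HSC, 285 and 185 TPM in WT HSC, 266 and 213 TPM in WT KL, and 249 and 180.5 TPM in the pair labelled WT HSC 3 and WT KL 1. Its other row stayed between 0.522 and 3.58 TPM, and neither row was called. Aldoc, the brain aldolase, measured 2.39, 2.87 and 4.44 TPM in Evi1 HSC, 1.46 and 3.05 TPM in WT HSC, 0.206 and 0.0852 TPM in WT KL, and 0.130 and 2.45 TPM in the pair labelled WT HSC 3 and WT KL 1. It was higher than in WT KL in WT HSC (1.46, SE 0.33, adjusted p 0.0139) and in Evi1 HSC (1.86, SE 0.30, adjusted p 0.00286). The WT HSC call was lost without WT HSC 2 (adjusted p 0.0721), WT KL 2 (0.0575) or WT KL 3 (0.0761). With a pseudocount of 0.1 TPM the differences of this low gene were 3.22 and 3.76.

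Eno1, the enolase of most tissues, measured 155, 193 and 244 TPM in Evi1 HSC, 147 and 128 TPM in WT HSC, 207 and 197 TPM in WT KL, and 233 and 139 TPM in the pair labelled WT HSC 3 and WT KL 1. It was not called in any comparison, at -0.56 for WT HSC against WT KL (adjusted p 0.0716) and 0.50 for Evi1 HSC against WT HSC (adjusted p 0.538). Eno2, the neuronal enolase, stood at 1.18, 0.624 and 1.40 TPM in Evi1 HSC, 1.93 and 0.896 TPM in WT HSC, 0.0189 and 0.0573 TPM in WT KL, and 0 and 0.722 TPM in the pair labelled WT HSC 3 and WT KL 1. It was higher than in WT KL in WT HSC (1.18, SE 0.30, adjusted p 0.0213) and in Evi1 HSC (0.98, SE 0.27, adjusted p 0.0252), at levels that were at most 1.30% of enolase. Without WT HSC 1, WT KL 2 or WT KL 3 the first lost its call (adjusted p 0.0920, 0.0913 and 0.0837), and without Evi1 HSC 1, Evi1 HSC 3, WT KL 2 or WT KL 3 the second did (0.0627, 0.0638, 0.111 and 0.0993). With a pseudocount of 0.1 TPM the differences were 3.38 and 3.03.

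Of the enzymes that process triose phosphates, Tpi1 and Pgam1 were called. Tpi1, which interconverts the products of aldolase, measured 142, 179 and 197 TPM in Evi1 HSC, 148 and 126 TPM in WT HSC, 239 and 226 TPM in WT KL, and 234 and 129 TPM in the pair labelled WT HSC 3 and WT KL 1. Pgam1, a phosphoglycerate mutase, measured 53.2, 78.5 and 72.9 TPM in Evi1 HSC, 47.2 and 40.5 TPM in WT HSC, 84.6 and 68.8 TPM in WT KL, and 81.9 and 49.4 TPM in the pair labelled WT HSC 3 and WT KL 1. In both genes WT HSC was below WT KL without overlap. Both were lower in WT HSC than in WT KL, Tpi1 at -0.76 (SE 0.17, adjusted p 0.0136) and Pgam1 at -0.79 (SE 0.21, adjusted p 0.027). Leaving out WT HSC 2, WT KL 2 or WT KL 3 ended the call of Tpi1 (adjusted p 0.0770, 0.0717 and 0.0576) and of Pgam1 (0.127, 0.137 and 0.0573), and for Pgam1 so did leaving out WT HSC 1 (0.0566).

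Gpi1, Gapdh and Pgk1 were called in no comparison. Gpi1, which isomerises glucose phosphate, ranged from 148 to 245 TPM. Pgk1, which makes the first ATP of the pathway, ranged from 62.5 to 118 TPM, with 87.8, 118 and 114 TPM in Evi1 HSC above the 66.9 and 62.5 TPM of WT HSC. That difference was 0.70 (SE 0.15, adjusted p 0.216).

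Gapdh, the dehydrogenase often used as a reference gene, was listed at only 17.8 to 32.9 TPM. The mouse genome holds many processed copies of it, and 78 other annotated genes, 75 of them pseudogenes, matched a Gapdh transcript at 95% identity or more over at least 200 bases. These copies were listed at 1101, 1290 and 1370 TPM in sum in Evi1 HSC, 1063 and 1022 TPM in WT HSC, 1571 and 1405 TPM in WT KL, and 1571 and 1007 TPM in the pair labelled WT HSC 3 and WT KL 1. Reads of the gene and of its copies cannot be told apart in these values, so the level of Gapdh itself is uncertain. When the copies were added to each member, Gapdh was lower in WT HSC than in WT KL (-0.51, SE 0.12, adjusted p 0.0166), beside -0.60 (adjusted p 0.0715) without them. Pgk1, whose 4 copies summed to between 35.0 and 66.3 TPM, became higher in Evi1 HSC than in WT KL (0.44, adjusted p 0.0470). Eno1 has 3 such copies, at 68.5 to 134 TPM in sum, and remained not called.

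**Figure D5:**
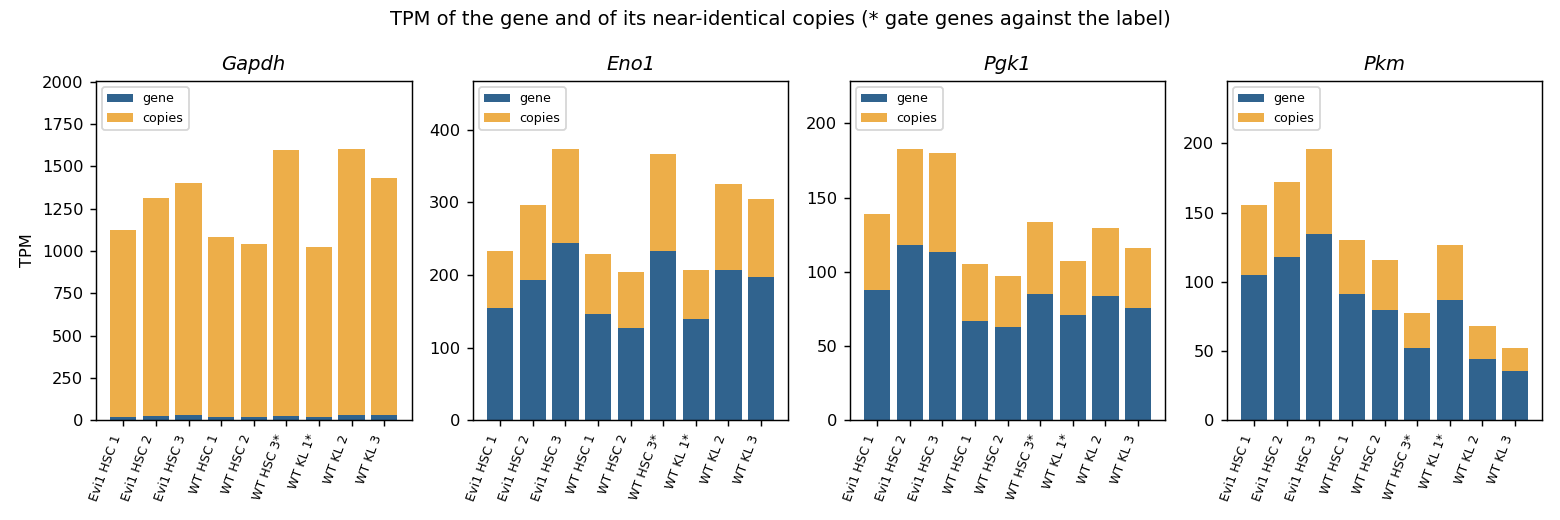
TPM listed for Gapdh, Eno1, Pgk1 and Pkm (blue) and, stacked on it, for the sum of their near-identical copies (orange), with 1 bar per library and an asterisk at the libraries labelled WT HSC 3 and WT KL 1. For Gapdh the copies sum to 1007 to 1571 TPM and the gene itself to 17.8 to 32.9 TPM.

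Genes of lactate dehydrogenase and of the lactate carriers differed between the stem cell groups and WT KL in every case. Ldha encodes the subunit that favours the making of lactate, and Ldhb the subunit that favours its use. The windows upstream of both are shown because the genes differed from WT KL in opposite directions. They are written as for Pklr, with ACGTG and CACCC in capitals.
Ldha, chr7:46845554-46845803, plus strand: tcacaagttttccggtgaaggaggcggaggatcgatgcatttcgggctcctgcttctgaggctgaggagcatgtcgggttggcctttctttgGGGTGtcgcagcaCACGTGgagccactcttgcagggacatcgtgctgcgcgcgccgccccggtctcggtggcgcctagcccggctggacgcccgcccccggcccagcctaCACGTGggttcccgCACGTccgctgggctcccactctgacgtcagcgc
Ldhb, chr6:142507958-142508207, minus strand: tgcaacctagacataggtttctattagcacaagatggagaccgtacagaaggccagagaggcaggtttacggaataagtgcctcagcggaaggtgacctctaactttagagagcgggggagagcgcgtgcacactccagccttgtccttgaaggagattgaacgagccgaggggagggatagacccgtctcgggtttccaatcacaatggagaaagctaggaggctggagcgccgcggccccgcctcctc

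In this Ldha window ACGTG stood 145, 48 and 34 bases before the start and CACCC 158 bases before it, while the Ldhb window held none of the 3 motifs. Ldha has a further RefSeq start downstream, whose window (chr7:46846832-46847081, not printed) also held none of them, so the 2 genes do not differ in this respect at every start. Ldha, at chr7:46841475-46855627, measured 440.0, 572 and 555 TPM in Evi1 HSC, 475 and 444 TPM in WT HSC, 975 and 966 TPM in WT KL, and 996 and 496 TPM in the pair labelled WT HSC 3 and WT KL 1. By listed TPM it was the most abundant member in every library, although the copies of Gapdh, whose reads cannot be told from those of Gapdh, summed to more. The stem cell groups overlapped each other and lay well below WT KL. Ldha was lower than in WT KL in WT HSC (-1.08, SE 0.14, adjusted p 0.00155) and in Evi1 HSC (-0.90, SE 0.13, adjusted p 0.00149).

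Ldhb, at chr6:142490249-142507957 on the minus strand, measured 47.4, 51.8 and 56.8 TPM in Evi1 HSC, 59.1 and 66.5 TPM in WT HSC, 2.61 and 0.980 TPM in WT KL, and 1.53 and 67.2 TPM in the pair labelled WT HSC 3 and WT KL 1. Both stem cell groups stood far above WT KL, with no Evi1 HSC library as high as a WT HSC library. Between Evi1 HSC and WT HSC the difference of Ldhb was -0.27 (SE 0.25, adjusted p 0.840) and was not called. Ldhb was higher than in WT KL by 4.58 in WT HSC (SE 0.28, adjusted p 1.14e-04) and by 4.31 in Evi1 HSC (SE 0.25, adjusted p 5.58e-05), the widest higher differences among the members. As a share of both subunits, Ldhb was 9.73, 8.30 and 9.28% in Evi1 HSC, 11.1 and 13.0% in WT HSC, and 0.267 and 0.101% in WT KL. Ldha was the main gene in all libraries, and the Ldhb share of WT KL lay far below that of both stem cell groups.

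Slc16a1 encodes MCT1, which carries lactate and pyruvate in both directions, and Slc16a3 encodes MCT4, the exporter of strongly glycolytic cells. Slc16a1 measured 21.4, 25.8 and 17.4 TPM in Evi1 HSC, 29.3 and 26.6 TPM in WT HSC, 85.5 and 85.9 TPM in WT KL, and 89.3 and 28.4 TPM in the pair labelled WT HSC 3 and WT KL 1. Slc16a3 measured 2.46, 2.28 and 5.73 TPM in Evi1 HSC, 2.70 and 2.43 TPM in WT HSC, 18.8 and 20.4 TPM in WT KL, and 17.6 and 2.42 TPM in the pair labelled WT HSC 3 and WT KL 1. Both carriers were low in the stem cell groups and high in WT KL, with no overlap. Slc16a1 was lower than in WT KL in WT HSC (-1.58, SE 0.19, adjusted p 0.00126) and Evi1 HSC (-1.96, SE 0.17, adjusted p 2.37e-04). Slc16a3 was lower by more, at -2.53 (SE 0.36, adjusted p 0.00224) and -2.28 (SE 0.32, adjusted p 0.00163). Slc16a1 was the main carrier of the pair in all libraries, with Slc16a3 at 7.85 to 24.8% of their sum.

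The pyruvate dehydrogenase complex decides whether pyruvate enters the citric acid cycle. Pdha1, its catalytic alpha subunit and the target of the Pdk kinases, measured 35.4, 36.9 and 35.3 TPM in Evi1 HSC, 40.0 and 44.4 TPM in WT HSC, 75.4 and 68.4 TPM in WT KL, and 71.2 and 37.9 TPM in the pair labelled WT HSC 3 and WT KL 1. It was lower than in WT KL in WT HSC (-0.76, SE 0.12, adjusted p 0.00421) and in Evi1 HSC (-0.98, SE 0.11, adjusted p 7.0e-04). Dld, the dihydrolipoamide dehydrogenase subunit, measured 29.7, 26.3 and 25.5 TPM in Evi1 HSC, 41.7 and 34.3 TPM in WT HSC, 62.3 and 49.98 TPM in WT KL, and 51.5 and 29.6 TPM in the pair labelled WT HSC 3 and WT KL 1. The 7 libraries thus fell in the order Evi1 HSC, WT HSC, WT KL with no overlap, but Dld was not called between Evi1 HSC and WT HSC (-0.46, SE 0.16, adjusted p 0.491). Dld was lower than in WT KL in Evi1 HSC (-1.01, SE 0.16, adjusted p 0.0023) and in WT HSC (-0.55, SE 0.17, adjusted p 0.043). The latter call was lost on leaving out any 1 of the 7 libraries, at adjusted p from 0.0525 to 0.201.

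Pdhb, the beta subunit, ranged from 24.0 to 70.4 TPM and Dlat, the acetyltransferase, from 11.8 to 30.4 TPM. Neither was called. In Pdhb the libraries of Evi1 HSC were uneven, with 57.6, 24.8 and 24.0 TPM, and the difference from WT HSC was -0.80 (SE 0.39, adjusted p 0.652).

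The 4 kinases of the complex did not move together. Pdk1, a target of hypoxia-inducible factors, measured 38.2, 41.2 and 43.3 TPM in Evi1 HSC, 41.1 and 30.9 TPM in WT HSC, 48.3 and 54.5 TPM in WT KL, and 40.3 and 21.6 TPM in the pair labelled WT HSC 3 and WT KL 1. It was not called, at -0.52 for WT HSC against WT KL (adjusted p 0.0508). Pdk3 measured 45.5, 54.0 and 48.1 TPM in Evi1 HSC, 47.0 and 44.4 TPM in WT HSC, 24.3 and 25.6 TPM in WT KL, and 28.3 and 49.7 TPM in the pair labelled WT HSC 3 and WT KL 1. It was higher than in WT KL by 0.85 in WT HSC (SE 0.13, adjusted p 0.00363) and by 0.95 in Evi1 HSC (SE 0.12, adjusted p 0.00111). Pdk2 measured 8.12, 6.69 and 12.8 TPM in Evi1 HSC, 10.5 and 16.3 TPM in WT HSC, 3.51 and 3.83 TPM in WT KL, and 2.44 and 9.81 TPM in the pair labelled WT HSC 3 and WT KL 1. It too was higher than in WT KL, by 1.60 in WT HSC (SE 0.32, adjusted p 0.00897) and by 1.08 in Evi1 HSC (SE 0.29, adjusted p 0.0221). The call of Pdk2 was lost without WT HSC 2 (adjusted p 0.0562) or WT KL 2 (0.0529) for WT HSC, and without WT KL 2 (0.108) or WT KL 3 (0.0877) for Evi1 HSC.

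Pdk4, a kinase induced by fasting, was low throughout, at 0.581, 0.723 and 0.887 TPM in Evi1 HSC, 0.0417 and 0.272 TPM in WT HSC, while the library labelled WT KL 1 held 0.410 TPM. It was listed at 0 in WT KL 2, WT KL 3 and the library labelled WT HSC 3, and was not tested. Its levels were highest in the 3 Evi1 HSC libraries. By share of the 4 kinases, Pdk3 led with 49.3, 52.6 and 45.8% in Evi1 HSC and 47.6 and 48.4% in WT HSC, while Pdk1 led with 63.5 and 64.9% in WT KL.

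G6pdx opens the pentose phosphate pathway, which branches from glycolysis and supplies NADPH and ribose. It measured 17.1, 13.7 and 10.7 TPM in Evi1 HSC, 17.4 and 15.8 TPM in WT HSC, 44.5 and 36.9 TPM in WT KL, and 35.4 and 17.4 TPM in the pair labelled WT HSC 3 and WT KL 1. G6pdx was lower than in WT KL in WT HSC (-1.24, SE 0.23, adjusted p 0.00619) and in Evi1 HSC (-1.51, SE 0.21, adjusted p 0.00142). Of 7 other genes of that pathway, 0 were higher and 2 lower in WT HSC than in WT KL, and 0 were higher and 3 lower in Evi1 HSC. Their median differences were -0.50 and -0.66.

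Neighbouring pathways were counted in the same fits, and are read against the 26.7% of all genes higher and 10.8% lower for WT HSC and the 31.3% higher and 14.3% lower for Evi1 HSC. Of 16 citric acid cycle genes, 0 were higher and 7 lower in WT HSC than in WT KL, with a median of -0.71, and 0 higher and 8 lower in Evi1 HSC, with a median of -0.97. Idh3a, a subunit of isocitrate dehydrogenase, stood lowest at -1.31 and -1.71, followed by Sdhd and by the citrate synthase gene Cs. Of 18 genes of hypoxia-inducible factors and their targets, 4 were higher and 1 lower in WT HSC than in WT KL, with a median of 0.65, and 8 were higher and 1 lower in Evi1 HSC, with a median of 0.85. For WT HSC both shares of hypoxia genes called were below those of all genes. Egln3, a prolyl hydroxylase, was higher in Evi1 HSC than in WT KL by 1.74 (SE 0.26, adjusted p 0.00208), and the oxidoreductase Ero1l was lower by the fit (-1.24, adjusted p 0.00129). Between Evi1 HSC and WT HSC none of the 7 pentose phosphate, 16 citric acid cycle or 18 hypoxia genes was called.

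Of 7 tested genes of MYC and of the glucose-sensing MondoA group, 4 were higher and 2 lower than WT KL in each stem cell group. Mycn measured 91.0, 74.0 and 92.5 TPM in Evi1 HSC, 86.9 and 87.6 TPM in WT HSC, and 0.0475 and 0.497 TPM in WT KL. Myc went the other way, with 12.4, 9.90 and 19.1 TPM, 33.2 and 17.6 TPM, and 99.9 and 93.9 TPM in the same order. Txnip, a MondoA target that limits glucose uptake, measured 188, 175 and 246 TPM in Evi1 HSC, 142 and 165 TPM in WT HSC, and 22.5 and 21.0 TPM in WT KL. Low Ldha, Slc16a1 and Slc16a3 stood beside low Myc and high Mycn in the stem cell groups, and so did high Slc2a3, Hk1 and Pkm. Of the members, 9 were called higher and 10 lower than WT KL in WT HSC, and 12 higher and 8 lower in Evi1 HSC. Any link of the members to Myc or Mycn was not tested.

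Among 7 tested genes that control fructose bisphosphate and bisphosphoglycerate, 1 was higher and 3 lower in WT HSC than in WT KL, and 1 higher and 2 lower in Evi1 HSC. Bpgm, which makes the bisphosphoglycerate that lowers the oxygen affinity of haemoglobin, was the 1 gene of the metabolic, hypoxia and MYC lists called between Evi1 HSC and WT HSC, and is named after its values were seen. It measured 11.5, 7.46 and 9.0 TPM in Evi1 HSC, 1.40 and 1.90 TPM in WT HSC, 11.4 and 13.4 TPM in WT KL, and 10.1 and 14.9 TPM in the pair labelled WT HSC 3 and WT KL 1. The WT HSC libraries were the low ones, and Evi1 HSC exceeded them by 1.95 (SE 0.22, adjusted p 0.0387), a direction opposite to that of Pklr. That call was lost on leaving out any 1 of the 7 libraries, at adjusted p from 0.0653 to 0.160.

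Markers of other cell types also differed between the gates. Of 9 granulocyte and monocyte genes, 8 were tested. The sum over all 9 was 77.5 to 96.1 TPM in Evi1 HSC, 74.9 to 87.7 TPM in WT HSC and 611 to 2075 TPM in WT KL. Ctsg and S100a8 were listed at 0 in every Evi1 HSC library and in both WT HSC libraries. Mpo, with means of 8.35, 10.8 and 545 TPM in that order of groups, is in this sum. It was also a gate gene for leaving out libraries, so its part of the difference is not independent of that choice. Of 9 endothelial genes, 6 were higher in WT HSC and 8 in Evi1 HSC than in WT KL, and they summed to 230.4 to 263 TPM in Evi1 HSC, 158 to 243 TPM in WT HSC and 5.48 to 8.26 TPM in WT KL. Much of these sums was Esam, with means of 92.0 TPM in Evi1 HSC and 72.2 TPM in WT HSC, and Tek, with 45.1 and 44.0 TPM. Whether endothelial cells or the stem cells themselves held these transcripts was not tested. Hepatocyte genes (10) summed to 10.9 to 15.8 TPM in Evi1 HSC, 9.27 to 23.3 TPM in WT HSC and 2.94 to 4.91 TPM in WT KL, and macrophage genes (8) to 10.4 to 11.6, 3.0 to 10.1 and 8.65 to 10.6 TPM. The part of these cell types in the differences of the members from WT KL was not tested.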

How the data were processed

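The values used are the gene TPM the authors deposited, 1 file per library, per the file headers. In the file of WT HSC replicate 2 the value column is headed C_H3, which no label explains, and it was used as TPM because its range and sum matched those of the others. Per the submitters' processing notes, HISAT2, StringTie and mm10 were used. Which tool did what, in which version, with which annotation and with strand or without is not stated there. Genes in the tables made up 56.9 to 63.8% of a library's full TPM, and features outside them the remainder. Depth is unknown, and no count test was used.

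From these values, limma 3.58.1 in R 4.3.3 was fitted with a trend to log2(TPM + 1) of the 19461 genes that reached 1 TPM in at least 3 libraries, with a mean per group and 1 shared spread. Adjustment was Benjamini-Hochberg over all genes tested. Values of all 9 libraries are given for members that were called or belong to an isozyme pair, and other members by range. Of other lists, counts and up to 4 called genes of largest change were eligible for naming. Members, lists and tests were chosen with earlier results of these data known, among them the 2 libraries against their labels. Near-identical copies were found with blastn 2.17.0 on the GENCODE M21 transcripts (GRCm38), and the fit with copies summed was added after seeing the data. Of 55488 table gene identifiers, 55227 were in that annotation. The fitting code was tested on simulated data. Protein sequences were not used here.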

Additional observations from a re-analysis of the deposited data

How the results depend on the processing

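With the 7 libraries, 15 of the 20 members called for Evi1 HSC against WT KL were called under every alternative that tested them. For WT HSC against WT KL this held for 10 of the 19 called. All 20 and all 19 kept their direction wherever they were tested. A filter at 5 TPM left 29 rows of members, and Aldoc, Eno2 and Pfkfb4 were not tested under it. Aldoc is among the 15. The 1 member called for Evi1 HSC against WT HSC, Pklr, kept its direction, but 0 members were called there with a pseudocount of 0.1 or 0.5 TPM, without the filter on low values or with the compared groups alone, and 0 to 1 on leaving out 1 library. Leaving out 1 library gave 11 to 19 members for WT HSC against WT KL, with 12 without WT HSC 2 or WT KL 2 and 11 without WT KL 3. Calls over all genes fell as well without WT HSC 2, WT KL 2 or WT KL 3, so the fall was not particular to the members. With the 9 libraries as labelled, 0 members were called in any comparison, whereas the 7 libraries gave 1 between the stem cell groups, 19 between WT HSC and WT KL and 20 between Evi1 HSC and WT KL. Leaving out 1 of the 9 libraries gave 0 to 1 members, the 1 for Evi1 HSC against WT KL without WT KL 1. Over all genes, 40 were called for Evi1 HSC against WT HSC, but 6 with the compared groups alone and 5 to 27 on leaving out 1 library. The cause of these changes was not tested.

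With the replicate number as a block, 0, 14 and 20 members were called with the 7 libraries in these comparisons, in that order, and 0, 4947 and 7526 genes in all, beside 40, 7307 and 8863 without the block. With the 7 libraries, the deviations of same-numbered libraries from their group means correlated at -0.062 to -0.0066. Deviations within a group of 2 libraries mirror each other. These correlations therefore cannot show whether same-numbered samples shared more than a number. Depth is unknown and sets no stated limit, and 2 or 3 libraries per group limit what could be called.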
